A study of Homo sapiens with 6 samples.

Results

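The retinoic acid pathway genes described here are CRABP1, CRABP2, RARA, RARB, RARG, ALDH1A2, ALDH1A3, CYP26A1, CYP26B1 and DHRS3. They were taken by name, as the binding proteins, receptors, synthetic enzymes and breakdown enzymes of retinoic acid, and are 10 of the 62754 genes in the table. The choice was made with earlier results of these data known, so shares set against all genes are description and no unbiased test. Polyadenylated RNA was sequenced from 6 libraries of HEK293 cells, a human embryonic kidney cell line that the labels also call HEK293T, with 3 control and 3 FAM60A knockout libraries. FAM60A, now named SINHCAF, encodes a subunit of the SIN3-HDAC corepressor complex, and the comparison asks which transcripts differ when it is disrupted. Knockout cells had received Cas9 with guide RNAs to 3 regions of the gene and were kept as a puromycin-selected pool rather than a single clone, whereas the controls carry only the label of a control treatment. Both groups grew in DMEM with fetal bovine serum and Glutamax, and the labels name no added retinoid. The labels do not say that the 3 libraries of a group came from separate cultures, so p-values measure only the spread between these libraries.

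Retinoic acid is made from vitamin A inside the cell. Retinol is oxidised to retinaldehyde, which DHRS3 can turn back into retinol, and the ALDH1A enzymes oxidise retinaldehyde to retinoic acid. CRABP proteins bind the product in the cytosol, CYP26 enzymes break it down, and the receptors RARA, RARB and RARG, paired with an RXR, sit on response elements in DNA where the ligand exchanges corepressors for coactivators. Several genes of the pathway, RARB and CYP26A1 among them, are themselves textbook targets of retinoic acid.

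A classical retinoic acid response element is a direct repeat of a hexamer. Promoter windows in the RefSeq annotation of GRCh38.p14, from 250 bases before to 50 bases after a start, were available for all 10 genes as 19 windows. They were searched on both strands for 2 exact hexamers in the same orientation, separated by 1, 2 or 5 bases. Each hexamer was AGGTCA or AGTTCA or GGGTCA or GGTTCA, and the 2 did not have to be the same. Only the spacing of 5 bases was found, in 1 window of RARB and 1 of CYP26A1, and the other 17 windows held no match. Over all genes 31 of 35116 windows held the repeat with a spacing of 5 (0.0883%) and 91 (0.259%) held any of the 3 spacings. Both stretches are shown because they are the only response-element letters found beside these genes, with the hexamers in capitals:
RARB: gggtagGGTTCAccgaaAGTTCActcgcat
CYP26A1: acaattAGTTCAcccaaAGTTCAtctttaa
The RARB stretch (chr3:25428204-25428233) is on the strand of the gene, and its repeat runs from 53 to 37 bases before a start that lies inside the RARB locus. The CYP26A1 stretch (chr10:93073796-93073825) is printed on the strand opposite to the gene, with the repeat 90 to 74 bases before one of its starts. A match describes the letters of the window and says nothing about occupancy in these cells.

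Depth was similar across the series, with 88361827 to 93346824 counted reads a library. FAM60A itself stood at 113, 106 and 132 CPM (counts per 1000000 reads, scaled by the edgeR TMM factors throughout) in the controls and at 67.5, 66.0 and 61.7 CPM in the knockouts, a log2 fold change of -0.85 ± 0.11 (SE) with an edgeR adjusted p of 0.00863. The transcript was thus lower in 3 of 3 knockout libraries but not lost, and leaving out any of the knockouts raised the edgeR adjusted p to at most 0.0736. Control replicate 3 stood apart from the other controls. Over all genes its counts differed from those of control replicates 1 and 2 with a chi-square per degree of freedom of 393 and 382, against 24.6 between replicates 1 and 2 and 14.9 to 29.1 among the knockouts. It is therefore given as a library of its own for the 10 genes, and fits without it are given beside those with all libraries.

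All 10 genes passed the filter on low counts and were tested. Since they were chosen with earlier results known, the shares below are description only. With all 6 libraries 3 of them passed an edgeR adjusted p of 0.05, DHRS3 higher and RARA and CYP26B1 lower in the knockouts (30.0%, against 16.6% of the 20992 genes tested, 7.96% higher and 8.67% lower). The same 3 were the genes whose groups did not overlap, which held for 41.6% of all genes tested. With a log2 fold change of at least 1 added, DHRS3 alone remained (7.06% of all genes tested, 3.34% higher and 3.72% lower). Leaving out control replicate 1 left 2 members past the adjusted p, and leaving out control replicate 2 or any of the knockouts left 0 by edgeR, with 3 at an unadjusted p under 0.05 each time. Without control replicate 3, 8 of 10 passed, 6 higher and 2 lower, but so did 65.6% of all 21686 genes then tested (32.4% higher and 33.2% lower). Of these 8, 7 had a log2 fold change of at least 1, 6 higher and 1 lower, against 22.9% of all genes (13.1% higher and 9.75% lower). The median log2 fold change of the 10 genes was 0.00 with all libraries and 1.45 without control replicate 3, while that of all genes tested was -0.01 and 0.00.

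**Figure D1:**
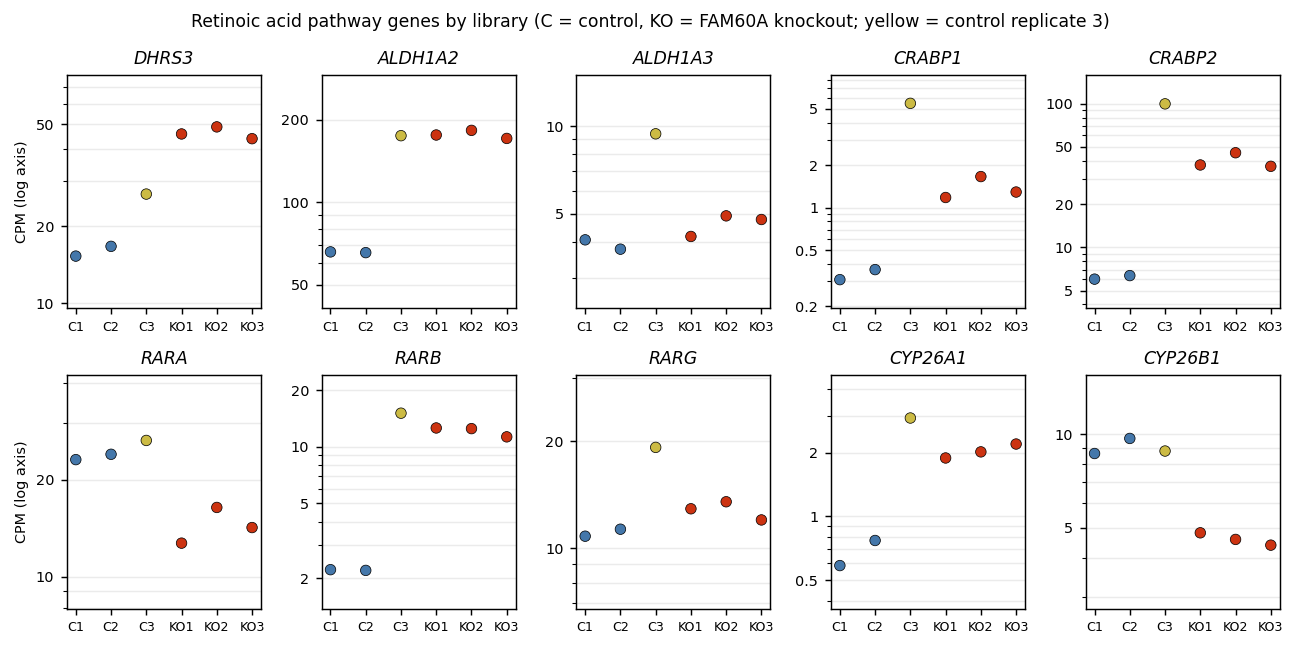
CPM (TMM-scaled, log axis) of the 10 genes in each library, 1 point a library, with control replicates 1 and 2 in blue, control replicate 3 in yellow and the 3 knockouts in red. In DHRS3, RARA and CYP26B1 every knockout lies on one side of every control, while in 7 panels control replicate 3 is the highest point.

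DHRS3 (ENSG00000162496, chr1:12567910-12618210), the reductase that returns retinaldehyde to retinol, was higher in the knockouts. It stood at 15.3, 16.7 and 26.7 CPM in control replicates 1, 2 and 3 and at 45.8, 48.8 and 43.9 CPM in the knockouts. All knockouts lay above all controls, and control replicate 3 lay between replicates 1 and 2 and the knockouts. The means were 19.6 ± 6.21 and 46.1 ± 2.47 CPM (SD, n = 3 each), a log2 fold change of 1.24 ± 0.22 (SE, 95% confidence interval 0.70 to 1.77) with an edgeR adjusted p of 0.0182. Leaving out control replicate 1, control replicate 2 or any of the knockouts raised the edgeR adjusted p to between 0.0535 and 0.0968 with the log2 fold change still between 1.06 and 1.28. Without control replicate 3 the log2 fold change was 1.5 (edgeR adjusted p = 1.54e-12).

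The enzymes that make retinoic acid did not pass the test with all libraries. ALDH1A2 (ENSG00000128918, chr15:57953429-58065711), the main retinoic acid-forming enzyme of the early embryo, stood at 65.8 and 65.4 CPM in control replicates 1 and 2, at 175 CPM in control replicate 3, and at 176, 183 and 171 CPM in the knockouts. Control replicate 3 lay within the range of the knockouts, at 2.67 times the mean of replicates 1 and 2, where the knockouts averaged 2.69 times that mean. The log2 fold change was 0.79 ± 0.40 (SE, 95% confidence interval -0.16 to 1.74, edgeR adjusted p = 0.209), and 1.40 without control replicate 3 (edgeR adjusted p = 1.43e-12). ALDH1A3 (ENSG00000184254, chr15:100879831-100916626), which carries out the same reaction, stood at 4.06, 3.77 and 9.41 CPM in the controls and at 4.17, 4.91 and 4.77 CPM in the knockouts. There the high library was control replicate 3 alone, and the knockouts averaged 1.18 times control replicates 1 and 2. Its log2 fold change was -0.32 ± 0.38 (SE, 95% confidence interval -1.22 to 0.59, edgeR adjusted p = 0.589) with all libraries and 0.21 without control replicate 3 (edgeR adjusted p = 0.119), so the sign depended on that library.

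The binding proteins varied more than any other member. CRABP1 (ENSG00000166426, chr15:78340353-78348225) had 30 and 35 reads in control replicates 1 and 2, 529 in control replicate 3, and 99, 146 and 114 in the knockouts. CRABP2 (ENSG00000143320, chr1:156699606-156705784), which passes retinoic acid on to the receptors, had 583, 610 and 9625 reads in the controls and 3148, 3994 and 3231 in the knockouts. In both genes the knockouts lay between control replicates 1 and 2 below and control replicate 3 above. Against the mean CPM of control replicates 1 and 2, control replicate 3 was 16.3-fold higher for CRABP1 and 16.1-fold for CRABP2, and the knockouts were 4.09-fold and 6.45-fold higher. The span over the 6 libraries was 4.06 log2 units for CRABP1 and 4.05 for CRABP2, against at most 2.77 (RARB) for the others. With all libraries neither gene passed, CRABP1 at a log2 fold change of -0.57 ± 1.08 (SE, edgeR adjusted p = 0.741) and CRABP2 at 0.09 ± 1.07 (SE, edgeR adjusted p = 0.961). Their 95% confidence intervals ran from -3.17 to 2.02 and from -2.47 to 2.66, which leaves large changes of either sign undetectable with these libraries. Without control replicate 3 the log2 fold changes were 2.00 (edgeR adjusted p = 8.48e-08) and 2.66 (edgeR adjusted p = 3.47e-15).

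The 3 receptors differed from one another. RARA (ENSG00000131759, chr17:40309180-40357643), the broadly expressed receptor, stood at 23.1, 24 and 26.5 CPM in the controls and at 12.7, 16.4 and 14.2 CPM in the knockouts. Every knockout lay below every control, and control replicate 3 lay close to the other controls, at 1.12 times their mean. The means were 24.5 ± 1.76 and 14.4 ± 1.85 CPM (SD, n = 3 each), a log2 fold change of -0.77 ± 0.14 (SE, 95% confidence interval -1.09 to -0.44, edgeR adjusted p = 0.0176). It was -0.74 without control replicate 3 (edgeR adjusted p = 5.29e-07). Leaving out control replicate 2 or any of the knockouts gave edgeR adjusted p-values of 0.0579 to 0.104.

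RARB (ENSG00000077092, chr3:24829321-25597932), the receptor whose internal start follows the repeat printed above, stood at 2.22 and 2.20 CPM in control replicates 1 and 2, at 15.1 CPM in control replicate 3, and at 12.6, 12.5 and 11.3 CPM in the knockouts. Control replicate 3 was the highest library, 6.84-fold over the mean of the other controls, and the knockouts were 5.49-fold over it. The log2 fold change was 0.90 ± 0.77 (SE, 95% confidence interval -0.95 to 2.75, edgeR adjusted p = 0.449) with all libraries and 2.42 without control replicate 3 (edgeR adjusted p = 3.50e-14). RARG (ENSG00000172819, chr12:53210569-53232209) stood at 10.8, 11.3 and 19.2 CPM in the controls and at 12.9, 13.5 and 12 CPM in the knockouts. Control replicate 3 again lay above the rest, whereas the knockouts averaged 1.16 times control replicates 1 and 2. The log2 fold change of RARG was -0.10 ± 0.24 (SE, 95% confidence interval -0.69 to 0.48, edgeR adjusted p = 0.795) and became 0.18 without control replicate 3 (edgeR adjusted p = 0.0791).

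The breakdown enzymes also differed from each other. CYP26A1 (ENSG00000095596, chr10:93073475-93077885), the enzyme whose promoter window holds the other repeat, had 57 and 74 reads in control replicates 1 and 2, 282 in control replicate 3, and 159, 177 and 194 in the knockouts. Control replicate 3 was 4.30-fold and the knockouts 3.0-fold over the mean CPM of control replicates 1 and 2. Its log2 fold change was 0.51 ± 0.60 (SE, 95% confidence interval -0.94 to 1.96, edgeR adjusted p = 0.583) with all libraries and 1.55 without control replicate 3 (edgeR adjusted p = 1.06e-07). CYP26B1 (ENSG00000003137, chr2:72129238-72147862) stood at 8.66, 9.68 and 8.82 CPM in the controls and at 4.82, 4.59 and 4.40 CPM in the knockouts. Here the 3 controls lay together and all knockouts lay below them. The means were 9.05 ± 0.549 and 4.61 ± 0.208 CPM (SD, n = 3 each), a log2 fold change of -0.97 ± 0.14 (SE, 95% confidence interval -1.32 to -0.63, edgeR adjusted p = 0.0110). Without control replicate 3 it was -1.02 (edgeR adjusted p = 1.02e-08). Leaving out control replicate 2 or any of the knockouts gave edgeR adjusted p-values of 0.0520 to 0.0866.

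**Figure D2:**
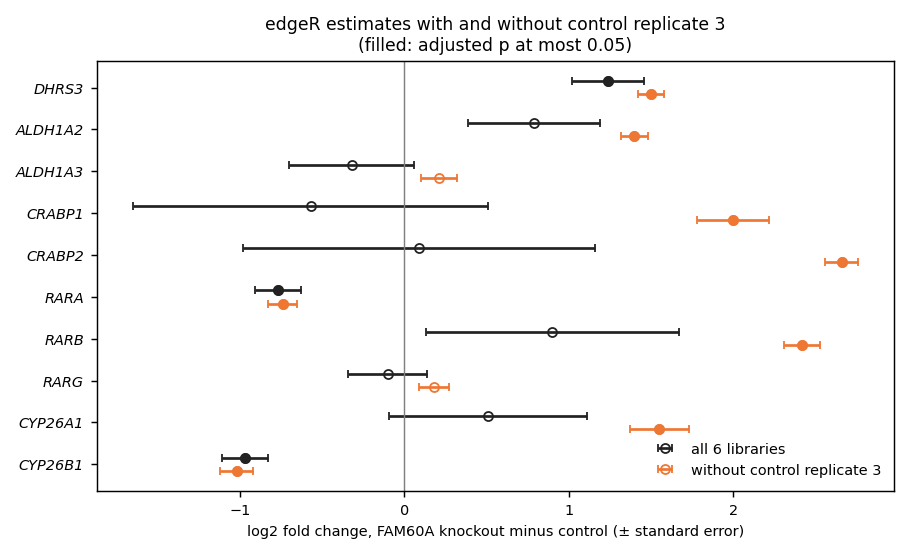
Log2 fold change, knockout minus control, of the 10 genes with its standard error, from all 6 libraries (black) and without control replicate 3 (orange), filled where the edgeR adjusted p is at most 0.05. RARA and CYP26B1 hardly move between the fits, while CRABP1, CRABP2 and RARB shift to between 2.00 and 2.66.

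Control replicate 3 thus sat differently against the 2 other controls from gene to gene. It was the highest of the 6 libraries in 7 of 10 members (ALDH1A3, CRABP1, CRABP2, RARA, RARB, RARG and CYP26A1), against 26.4% of all genes tested. For DHRS3 it was 1.67 times control replicates 1 and 2 where the knockouts were 2.88 times, and for CYP26B1 it was 0.962 times where the knockouts were 0.502 times. The labels give no difference in treatment, date or culture for this library.

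Levels can be compared between genes only per length. On the scale of CPM per kilobase of exon, the knockouts ordered as CRABP2 (36.8), ALDH1A2 (21.7), DHRS3 (13.1), RARA (3.04), RARG (2.50), CRABP1 (1.44), RARB (1.28), CYP26B1 (0.952), ALDH1A3 (0.865) and CYP26A1 (0.686). In that order CRABP1 and RARB overlapped between libraries, as did CYP26B1 and ALDH1A3. In control replicates 1 and 2 the order was ALDH1A2 (8.07), CRABP2 (5.71), RARA (4.97), DHRS3 (4.56), RARG (2.16), CYP26B1 (1.90), ALDH1A3 (0.734), CRABP1 (0.351), RARB (0.234) and CYP26A1 (0.229). In those libraries RARB (0.235 and 0.233) lay within the range of CYP26A1 (0.198 and 0.260), so their order is not settled. Control replicate 3 placed CRABP2 at 92.1 and ALDH1A2 at 21.6 CPM per kilobase. With the length of the longest transcript in place of all exons, ALDH1A2 (47.8) came above CRABP2 (38.6) in the knockouts and RARA (4.40) and RARG (4.39) were level. RARB (2.47) then came above CRABP1 (1.87) and ALDH1A3 (1.33) above CYP26B1 (1.01), so the order within these pairs depends on the transcript length used. The order given for control replicates 1 and 2 rests on the length of all exons and may also depend on that choice.

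Within the receptors the make-up differed more than the sum. RARA made up 67.5% and 67.4% of summed receptor CPM per kilobase in control replicates 1 and 2, 51.1% in control replicate 3, and 41.0%, 46.6% and 45.8% in the knockouts. RARB made up 3.26% and 3.10%, then 14.6%, then 20.5%, 17.8% and 18.2% in the same libraries. For both shares control replicate 3 lay between the other controls and the knockouts. The summed receptor level was 7.21 and 7.51 CPM per kilobase in control replicates 1 and 2, 10.9 in control replicate 3, and 6.52, 7.41 and 6.54 in the knockouts. RARA had the highest of the 3 shares in every library, but with the longest transcript as length RARG (40.6%) came above RARA (35.6%) in knockout replicate 1.

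CYP26A1 made up 9.95% and 11.5% of the summed level of CYP26A1 and CYP26B1 in control replicates 1 and 2, 35.1% in control replicate 3, and 39.0%, 41.8% and 44.9% in the knockouts. ALDH1A2 made up 91.3% and 91.9% of the summed level of ALDH1A1, ALDH1A2 and ALDH1A3 in control replicates 1 and 2, 82.7% in control replicate 3, and 87.9%, 88.0% and 89.5% in the knockouts. CRABP2 held between 93.9% and 96.6% of the summed CRABP level in all 6 libraries. The summed CRABP level was 5.86 and 6.25 CPM per kilobase in control replicates 1 and 2, 97.8 in control replicate 3, and 35.8, 43.8 and 35.2 in the knockouts. CRABP1 held 5.49%, 6.08% and 5.84% of these sums in the controls and 3.43%, 3.96% and 3.83% in the knockouts. Its share was thus lower in every knockout than in every control, while CRABP2 made up most of the sum in all libraries.

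**Figure D3:**
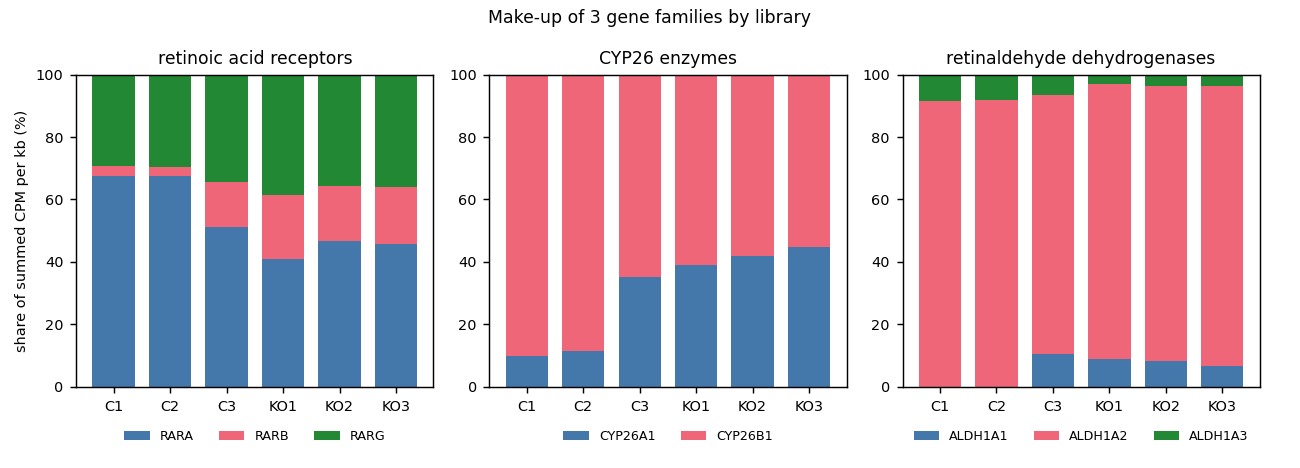
Share (%) of each gene in the summed CPM per kilobase of its family, as stacked bars from 0 to 100, for 3 control (C1 to C3) and 3 knockout (KO1 to KO3) libraries. RARB makes up 3.26% and 3.10% in C1 and C2 and 14.6% to 20.5% in the other 4 libraries, and CYP26A1 9.95% and 11.5% against 35.1% to 44.9%.

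Other genes of the pathway were followed in 3 lists, also chosen with earlier results of these data known. In the list of retinoid metabolism and transport, 25 of 32 genes were tested. Of these 25, 5 passed an edgeR adjusted p of 0.05, 4 higher and 1 lower. Of all genes tested 16.6% passed it (7.96% higher and 8.67% lower). All 5 also had a log2 fold change of at least 1. Both thresholds together were passed by 7.06% of all genes tested (3.34% higher and 3.72% lower). The partner and target lists below held 1 such gene each. The list's median log2 fold change was 0.36 beside -0.01 for all genes. LRAT, which esterifies retinol for storage, had 20, 16 and 59 reads in the controls and 521, 505 and 548 in the knockouts, a log2 fold change of 4.2 ± 0.53 (SE, edgeR adjusted p = 0.00804). All knockouts lay far above all controls, control replicate 3 included. STRA6, the cell-surface receptor for retinol uptake, had 1576, 1684 and 579 reads in the controls and 347, 443 and 336 in the knockouts, a log2 fold change of -1.61 ± 0.41 (SE, edgeR adjusted p = 0.0440). Control replicate 3 lay nearer to the knockouts there. The STRA6 difference did not pass by limma-voom (limma-voom adjusted p = 0.0967) or with a replicate block (edgeR adjusted p = 0.0791).

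FABP5, a fatty acid-binding protein that can also carry retinoic acid, had 467, 396 and 1155 reads in the controls and 2747, 2590 and 2410 in the knockouts, a log2 fold change of 2.10 (edgeR adjusted p = 0.0238). Its value is uncertain, since its pseudogene copy FABP5P7 was assigned more reads (1279 to 3454 over the controls, 8136 to 8546 over the knockouts), and near-identical sequences can share reads. BCO2, a carotenoid-cleaving enzyme, had only 23, 15 and 30 reads in the controls and 44, 62 and 75 in the knockouts. BCO2 rose by 1.56 (edgeR adjusted p = 0.0280) and DHRS7, a short-chain dehydrogenase, by 1.06 (edgeR adjusted p = 0.0418) on the log2 scale. Control replicate 3 was at 1.58 and 1.89 times the mean of the other controls for these genes, the knockouts at 3.53 and 2.7 times, and the fit without that library gave 1.78 and 1.40. ALDH1A1, the other retinaldehyde dehydrogenase and named after its values were seen, had 3 and 1 reads in control replicates 1 and 2, 758 in control replicate 3, and 527, 539 and 398 in the knockouts (log2 fold change 1.1, edgeR adjusted p = 0.694). Its control replicate 3 stood with or above the knockouts, far from the other controls.

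In the list of partner receptors and coregulators, 20 of 21 genes were tested and 5 passed the edgeR adjusted p of 0.05, 2 higher and 3 lower (25%, against 16.6% of all genes tested, 7.96% higher and 8.67% lower), with a median log2 fold change of -0.26. RORA, a nuclear receptor of the ROR family and not an RXR partner, was the only one with a log2 fold change of at least 1 (1.26, edgeR adjusted p = 0.0144, and 1.46 without control replicate 3). The others, named after their values were seen, were the coactivator NCOA2 (higher) and the corepressors NCOR1 and SIN3A and the coactivator NCOA1 (lower). With all libraries their log2 fold changes were 0.48, -0.53, -0.57 and -0.42. The edgeR adjusted p was 0.0195 for NCOR1, 0.0185 for SIN3A and 0.0449 for NCOA1, while NCOA2 lay at the cutoff of 0.05. Of the 12 alternative settings NCOA2 passed in 3, NCOR1 and SIN3A in 6 each and NCOA1 in 5. Without control replicate 3 the log2 fold changes of NCOA2, NCOR1, SIN3A and NCOA1 were 0.52, -0.60, -0.67 and -0.44, in the same directions. SIN3A is the scaffold of the complex to which FAM60A belongs. Of the RXR partners, also named after their values were seen, RXRA had a log2 fold change of -0.96 (edgeR adjusted p = 0.0508), RXRB -0.65 (edgeR adjusted p = 0.0801) and RXRG 2.35 (edgeR adjusted p = 0.0533), none of which passed. Control replicate 3 lay at 0.525, 0.595 and 4.64 times the mean of the other controls for RXRA, RXRB and RXRG. Without it all 3 passed, at -1.24 (edgeR adjusted p = 2.44e-11), -0.89 (edgeR adjusted p = 1.04e-09) and 3.45 (edgeR adjusted p = 4.81e-10).

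Of 30 genes often cited as retinoic acid targets, 22 were tested and 3 passed, all lower, with a median log2 fold change of -0.30. That share of 13.6% is near the 16.6% of all genes tested. TNFAIP2, a gene induced by tumour necrosis factor and retinoic acid, had 467, 465 and 226 reads in the controls and 45, 60 and 53 in the knockouts, a log2 fold change of -2.72 ± 0.34 (SE, edgeR adjusted p = 0.00763). All knockouts lay below all controls, and control replicate 3 was the lowest control. The other 2, named after their values were seen, were the nuclear receptor NR2F2 (-0.92, edgeR adjusted p = 0.00863) and the receptor tyrosine kinase RET (-0.80, edgeR adjusted p = 0.0371), at -1.03 and -0.75 without control replicate 3. Without control replicate 3, 19 of 25 tested genes of the metabolism list passed, 16 of 20 of the partner list and 17 of 23 of the target list, where 65.6% of all genes did. Of the list genes that passed both thresholds, FABP5, BCO2, DHRS7 and STRA6 no longer passed when any library but control replicate 3 was left out. RORA no longer passed without control replicate 1 or any of the knockouts, and LRAT and TNFAIP2 without knockout replicate 1 or 3. Among these fits STRA6 reached an edgeR adjusted p of 0.172 and LRAT 0.0598.

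**Figure D4:**
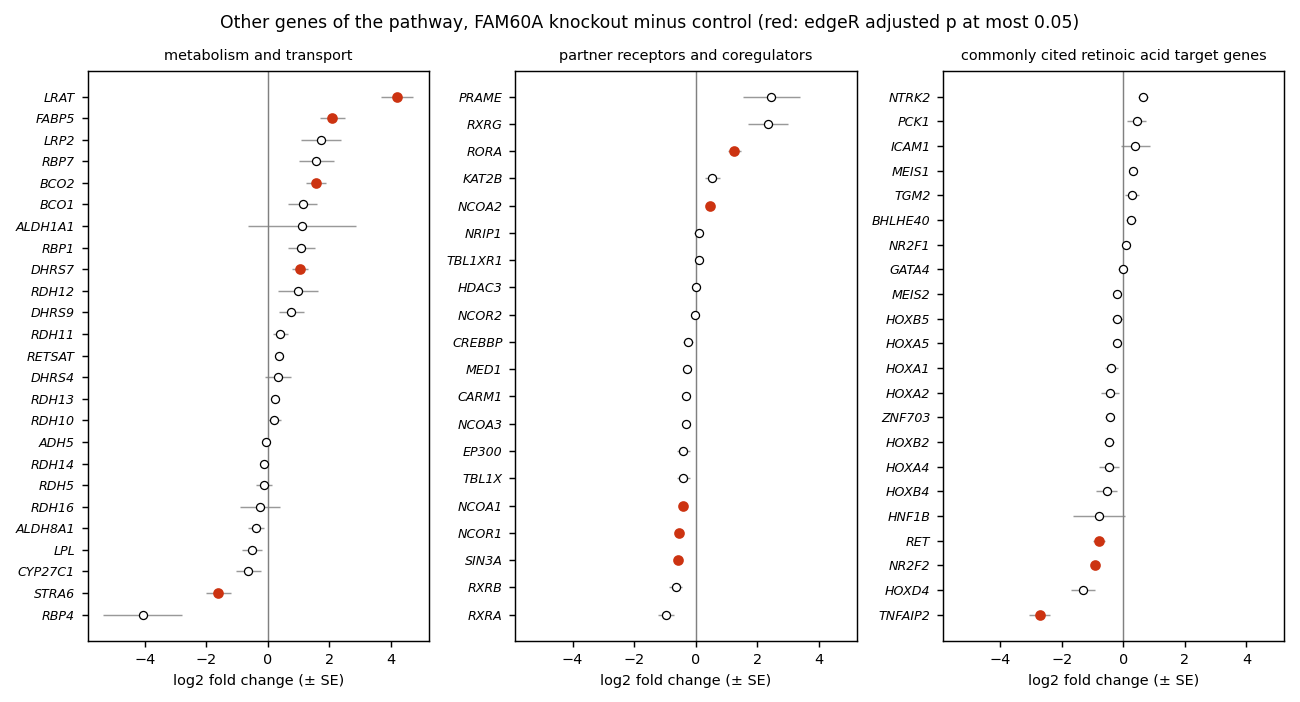
Log2 fold change (knockout minus control, all 6 libraries) with its standard error for the tested genes of the 3 lists, red where the edgeR adjusted p is at most 0.05. LRAT at 4.2 and TNFAIP2 at -2.72 lie farthest from 0 among the red points.

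CRABP1 had the widest range of log2 CPM of the 10 genes. The 5 genes whose centred log2 CPM over the 6 libraries was nearest to it were PRSS8, LDHD, TMEM271, PHF21B and ADGRB1, with root mean square differences of 0.14, 0.16, 0.17, 0.19 and 0.20 log2 units. PRSS8, a membrane-anchored serine protease, had 53 and 63 reads in control replicates 1 and 2, 885 in control replicate 3, and 216, 285 and 242 in the knockouts. These genes were chosen for their likeness to CRABP1 over the same libraries.

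Markers of the cell line and of other cells were counted in the same libraries. The 9 HEK293 markers all had more than 10 reads in every library, and their summed level was 1850 and 1900 CPM in control replicates 1 and 2, 1102 in control replicate 3, and 913 to 1058 in the knockouts. The 8 markers of MDA-MB-231, the breast cancer line the study also used, summed to 470 and 483 CPM, then 121, then 139 to 153. Fibroblast markers summed to between 24 and 29.4 CPM and leukocyte markers to between 0.311 and 1.77 CPM. With all libraries 1 of 9 HEK293 markers passed (lower), 0 of 8 MDA-MB-231 markers, 3 of 6 fibroblast markers (2 higher and 1 lower) and 0 of 5 leukocyte markers, where 16.6% of all genes tested did. The HEK293 and MDA-MB-231 sums placed control replicate 3 nearer to the knockouts than to the other controls, and their part in the results above was not tested. In bulk RNA, fewer cells expressing a gene and less RNA of it per cell cannot be told apart.

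Reads of antisense neighbours could be counted with RARA, ALDH1A2, ALDH1A3 and CRABP1. The study describes a strand-specific library preparation, but the strand setting of the counting is not given in the sources used here. The overlapping annotated genes were assigned few reads, which does not measure how many of their reads were counted with the members. RARA-AS1 had between 54 and 88 reads in a library, ALDH1A3-AS1 between 12 and 27 and ALDH1A2-AS1 between 0 and 12. CYP26A1 and ALDH1A3 also overlapped a gene on the same strand, by 462 and 63 bases. Those genes and the antisense neighbour of CRABP1 were assigned 0 reads in every library.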

How the data were processed

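The authors deposited a table of whole-number counts for 62754 genes in 6 libraries. The submitters' processing notes name STAR 2.7.10b, featureCounts 2.0.0 and hg38, while the extraction protocol names hg19 and the methods of the study describe transcript quantification with Salmon, so the route to these counts is uncertain. Symbols other than the identifier were found for 41375 genes, all members included. Genes were tested with edgeR 4.0.16 (TMM, filterByExpr with a minimum count of 10, quasi-likelihood F-test, two-sided, Benjamini-Hochberg over 20992 genes, R 4.3.3) without covariates. The test was first run on simulated counts. Exon lengths came from GENCODE 44 on GRCh37, and gene positions from RefSeq GRCh38.p14. Alternatives were DESeq2 1.42.0, limma-voom 3.58.1 with quantile normalization, no TMM, other count filters, each library left out, and a replicate block. An exact permutation test of 3 against 3 libraries cannot go below p = 0.1. The members and lists were chosen with earlier results of these data known. Beyond the members and FAM60A, list genes past both thresholds, at most 6 a list, and the 5 genes nearest in pattern to the most variable member were named. Depth per library was 88361827 to 93346824 reads, so replicate spread rather than counting limits most values.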

Additional observations from a re-analysis of the deposited data

How the results depend on the processing

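Genes called over the whole table numbered 3491 with all libraries, 5581 by DESeq2 and 407 with a replicate block, and 167 to 14221 when 1 library was left out. The lowest count was without knockout replicate 1 and the highest without control replicate 3. For the 10 retinoic acid genes, 0 to 8 were called when 1 library was left out (8 without control replicate 3, 2 without control replicate 1 and 0 without control replicate 2 or any knockout by edgeR, with 3 at an unadjusted p under 0.05 in each of these last 4) and 0 with the replicate block (4 unadjusted), while DESeq2 and limma-voom each called 3. The metabolism list held 8 calls by DESeq2, 1 with the block and 0 to 19 with 1 library left out, the partner list 9, 1 and 0 to 16, and the target list 6 by DESeq2 and 0 to 17. FAM60A had a log2 fold change of -0.84 with the block (edgeR adjusted p = 0.0551) and -0.92 to -0.78 with 1 library left out. The sign of CRABP1 turned with limma-voom (0.64), with the block (0.78) and in the range of -1.10 to 2.00 with 1 library left out. That of CRABP2 turned without TMM (-0.01) and over -0.43 to 2.66, ALDH1A3 over -0.55 to 0.21 and RARG over -0.27 to 0.18. The cause was not tested. Without TMM the median of all genes was -0.12 and the calls split into 1235 higher and 2668 lower, against 1671 and 1820. Replicate numbers gave no sign of pairing: same-numbered deviations from the group mean correlated at 0.0101, 0.0306 and -0.0362, and not every library correlated best with its own number. Control replicate 3 dominates the deviations of the controls, so these values cannot decide whether the samples were paired. DESeq2 gave no adjusted p for CRABP1 and CRABP2.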
